A study of Mus musculus with 28 samples.

Results

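The nuclear genes of the mitochondrial respiratory chain were followed across 8 groups of mouse libraries in a study of telomere length in germ cells made in culture. Members were taken by symbol: genes whose name starts with Nduf (complex I), Uqcr (complex III), Cox4 to Cox8 (complex IV) or Atp5 (ATP synthase), together with Sdha, Sdhb, Sdhc and Sdhd (complex II). Of 106 matching rows, 9 had a symbol holding "-ps" and 1, Ndufa11b, reached no more than 0.424 TPM in any library, which left 96 members among 53564 genes in all. The member just inside the limit of 1 TPM was Cox8b, with a highest value of 2.44 TPM, and the next lowest was Cox8c, with 19.1 TPM. By complex there were 38 members of complex I, 8 assembly factors of complex I, 4 members of complex II, 8 of complex III, 21 of complex IV and 17 of ATP synthase. Ndufa4 and its relative Ndufa4l2 were counted with complex IV, in which the Ndufa4 protein sits. All 96 members passed the filter on low values.

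The respiratory chain sits in the inner mitochondrial membrane. Complex I takes electrons from NADH and complex II from succinate, complex III hands them to cytochrome c, and complex IV hands them to oxygen; protons pumped on the way drive ATP synthase. A small set of subunits is encoded in mitochondrial DNA, and the genes described here are in the nucleus. Primordial germ cells, the embryonic precursors of eggs and sperm, are known for more active mitochondrial respiration than pluripotent stem cells.

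The samples were total RNA of C57BL6 mouse cells. Lines derived from embryonic stem cells (ESCs) were LT (long telomeres, wild type), ST (short telomeres, lacking Terc, the RNA template of telomerase, at generation 4) and RT (Terc restored). The labels name 1 line of each kind, so a difference between lines is a difference between these lines. The 1dEB groups (LT, ST and RT) were aggregates of epiblast-like cells after 1 day in PGC-inducing medium with BMP4, SCF, EGF and LIF, and no sorting is described for them. The 1dMeioLC groups (LT, ST and RT) were PGC-like cells after 4 days of induction, joined for 1 day with gonadal somatic cells. The somatic cells came from female E12.5 embryos carrying Actin-GFP. The medium held retinoic acid, vitamin C and a ROCK inhibitor, and GFP-negative cells were then sorted. E10.5PGC were germ cells sorted from E10.5 embryos by CD61 and SSEA1, and PGC-1dMeioLC were such cells put through the same 1-day culture and sort. Each group held 2 libraries. The labels do not say whether these came from separate cultures or animals, so p-values measure the spread between these libraries, which may be technical.

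Values are TPM, the authors' length-normalized transcript abundances, rescaled so that nuclear protein-coding genes sum to the same total (1000000) in every library. This was done because those genes held from 27.2% (RT 1dEB) to 61.3% (E10.5PGC) of all TPM, a share that differed between groups. TPM is divided by transcript length, so levels of different genes may be compared. Read depth is unknown. Fold changes are differences of log2(rescaled TPM + 1) ± standard error from limma, with p-values adjusted by Benjamini-Hochberg over 21935 genes, and "rose" and "fell" mean an adjusted p under 0.05. Without rescaling, the median change of all genes moved from 0.04 to -0.38 in RT against ST at 1dEB, from 0.10 to -0.17 in RT against LT at 1dEB, from 0.00 to 0.10 in ST against LT at 1dEB, from -0.17 to 0.19 in LT 1dMeioLC against LT 1dEB and from 0.28 to 0.13 in the culture of embryonic germ cells. Counts over all members are therefore given on both scales for each comparison. Counts by complex, length or motif, and some list counts, are given with rescaling only. Replicates had Pearson correlations across genes from 0.956 to 0.981. Terc itself was listed at 0 in all 4 ST libraries and between 0.699 and 5.39 deposited TPM in the LT and RT libraries. It was also listed at 0 in both PGC-1dMeioLC libraries, so a 0 here does not by itself mark a knockout. The sum of 6 markers of primordial germ cells was 5530 and 5542 rescaled TPM in E10.5PGC and between 111.5 and 193.8 in the 6 libraries of 1dEB. The sum of 3 markers of meiotic entry was between 724 and 1797 in the 1dMeioLC groups and between 20.0 and 77.0 elsewhere.

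As a share of nuclear protein-coding transcripts, the 96 members together came to 4.87% and 4.81% in the LT 1dEB libraries, 4.15% and 4.31% in ST 1dEB, and 4.17% and 4.04% in RT 1dEB. They came to 8.07% and 8.14% in LT 1dMeioLC, 6.89% and 6.78% in ST 1dMeioLC, and 8.03% and 8.32% in RT 1dMeioLC. The embryonic germ cells lay above 1dEB and below LT 1dMeioLC, with 7.32% and 7.54% in E10.5PGC and 7.48% and 7.47% in PGC-1dMeioLC. Every 1dMeioLC library was above every 1dEB library, the ST line was lowest at the 1dMeioLC stage, and the LT line was highest at the 1dEB stage. As a share of all deposited TPM the lead of LT over ST at 1dEB was gone: the members came to 1.89% and 1.87% in LT, 1.84% and 1.90% in ST and 1.13% and 1.18% in RT. On that scale complex I and complex IV were higher in ST (0.574% and 0.731%, means of 2) than in LT (0.548% and 0.699%), and the ST line stayed lowest at 1dMeioLC. Because these are bulk samples, fewer cells of one type and less RNA per cell cannot be told apart.

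**Figure D1:**
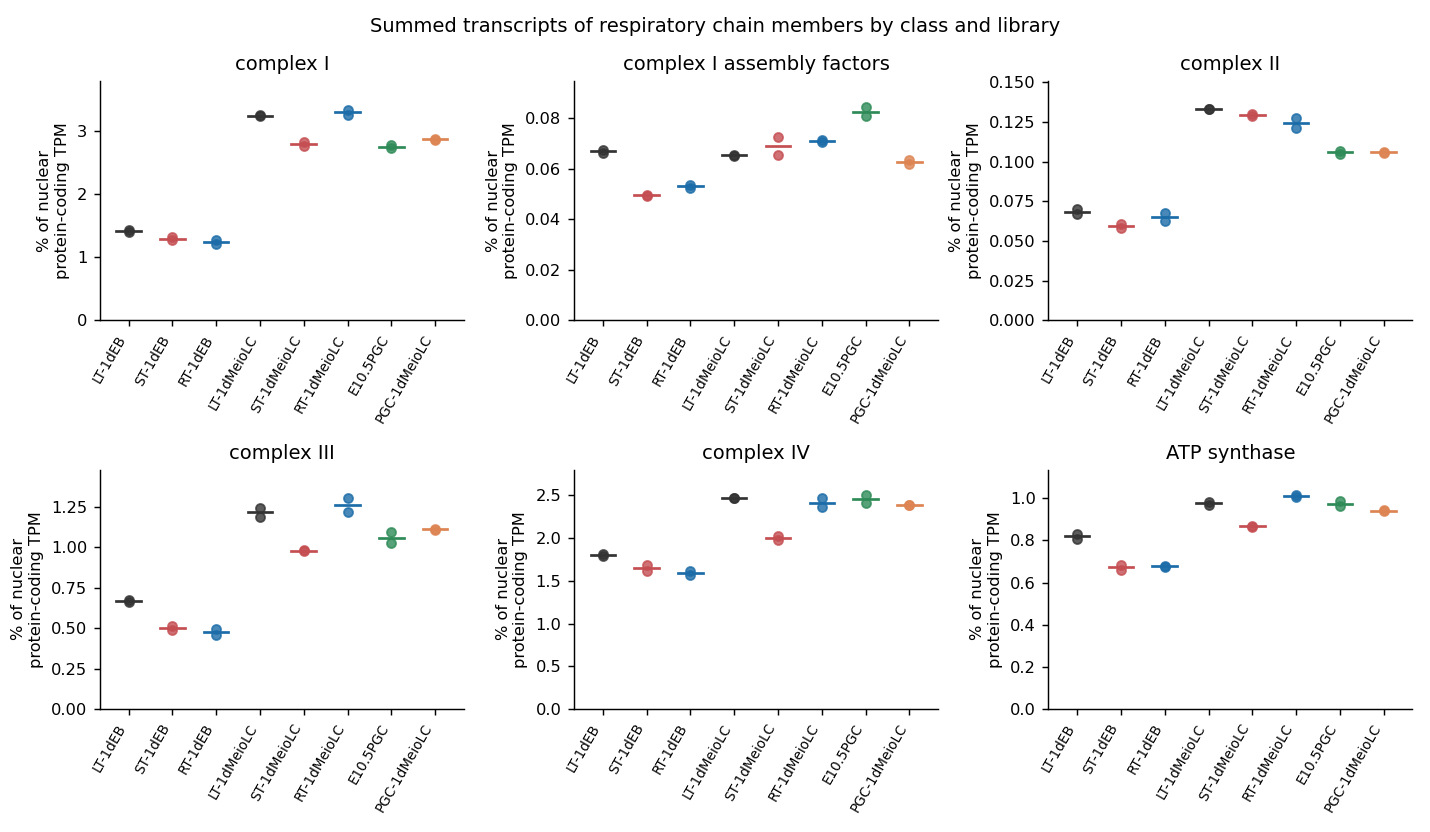
Summed rescaled TPM of the members of each class as a percentage of nuclear protein-coding TPM (vertical axes, starting at 0), by group (horizontal axes); each point is 1 library and each bar the mean of 2. Complex I shows the widest gap between the 1dEB libraries (1.21% to 1.43%) and the 1dMeioLC libraries of the 3 lines (2.77% to 3.34%).

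The median member level was 275.6 rescaled TPM in LT 1dEB and 482.5 in LT 1dMeioLC, and the group means of the members spanned from 0.228 to 7690 in the latter. Cox8a, a small subunit of complex IV (chromosome 19, 7215153 to 7217616, minus strand, mm10), was the most abundant member in all 3 of the 1dEB groups, with group means of 3686 in LT, 3555 in ST and 3613 in RT. In the other 5 groups the most abundant member was Cox7c, another small subunit of complex IV (chromosome 13, 86044816 to 86046904, minus strand, mm10), with means of 7690 in LT 1dMeioLC, 4348 in ST 1dMeioLC, 5685 in RT 1dMeioLC, 4659 in E10.5PGC and 8179 in PGC-1dMeioLC. In each of these 8 groups both libraries of the leading gene were above both libraries of the next. At the low end lay Cox8b and Cox6a2, isoforms known from heart and skeletal muscle. Several members have near-identical relatives between which reads can be split, so values of these families are uncertain. Ndufs6b, Ndufb4c and Cox6c2 resemble Ndufs6, Ndufb4 and Cox6c and are annotated as processed pseudogenes. They are counted as members and in the sums, but not in the nuclear protein-coding total to which the shares refer. The excluded rows Ndufb1-ps, Ndufab1-ps and Atp5k-ps2 reached 210, 178 and 115 TPM.

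The first comparison set the LT line at the 1dMeioLC stage against the same line at the 1dEB stage, which differ in time, medium, contact with somatic cells and sorting. Of 96 members, 70 rose and 19 fell, where over all genes tested 27.6% rose and 37.5% fell (65.0% in either direction). The median change was +0.68 over the members and -0.17 over all genes, on the log2 scale. On the deposited TPM without rescaling, 85 members rose and 6 fell, with 40.4% and 24.0% over all genes, and the same 70 members rose under both scalings and after quantile normalization. The members that rose were spread over complex I (33 of 38), complex III (6 of 8), complex IV (16 of 21) and ATP synthase (11 of 17), whereas of the 8 complex I assembly factors 2 rose and 4 fell.

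Among complex I subunits, Ndufa12, an accessory subunit that joins late in assembly, changed most. It was 249.9 and 242.6 in LT 1dEB and 1617 and 1626 in LT 1dMeioLC, so that the groups were far apart, a change of +2.71 ± 0.04 (adjusted p = 7.4e-12). Ndufb8, an accessory subunit of the membrane arm, was 233 and 249 at the first stage and 1073 and 1089 at the second (+2.16 ± 0.04, adjusted p = 3.1e-11). All other groups at the later stage and in the embryo were high too: Ndufa12 lay between 1252 and 1727 in the 10 libraries other than 1dEB and between 215.7 and 249.9 in the 6 of 1dEB. The core subunits of complex I, which carry the flavin and the iron-sulfur clusters, did not move together. Ndufv1, the subunit that binds NADH, fell from 143 and 170 to 59.8 and 65.4 (-1.30 ± 0.09, adjusted p = 5.2e-07). Ndufv2, Ndufs3 and Ndufs8, core subunits as well, rose by 0.96, 0.84 and 1.03, and Ndufs1 rose by 0.41 ± 0.10. Ndufv2, Ndufs3 and Ndufs8 are named here after their values were seen. In the mm10 build Ndufa12 lies on chromosome 10 from 94198720 to 94221443 (plus strand), and Atp5d, described below, on chromosome 10 from 80138632 to 80145818 (plus strand).

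In complex II, Sdhb, the iron-sulfur subunit, was 199 and 219 in LT 1dEB and 795 and 784 in LT 1dMeioLC (+1.91 ± 0.06, adjusted p = 9.4e-10). Sdha, the flavoprotein to which Sdhb is bound, was 85.4 and 89.6 against 90.9 and 90.8 and did not pass the test (+0.05 ± 0.08). The libraries of the stages were far apart for Sdhb, and for Sdha they were adjacent without overlap. Sdhc, a membrane anchor, was 116 and 120 against 87.1 and 91.6, a change of -0.40 ± 0.08 that turned to +0.24 without rescaling.

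In complex III, Uqcrb and Uqcr10, small subunits, rose by 1.28 ± 0.05 and 0.95 ± 0.05 (adjusted p = 4.7e-09 and 5.4e-08). Uqcr10 was 2245 and 2248 in LT 1dEB and 4223 and 4458 in LT 1dMeioLC, with no overlap. Uqcrc1, a large core protein of the matrix side, was 194 and 207 against 125 and 136. Its change of -0.62 ± 0.07 (adjusted p = 1.9e-05) turned to +0.02 without rescaling, so its direction depends on the scale. Uqcrfs1, the Rieske iron-sulfur protein, was 259 and 275 against 306 and 298 and did not pass the test (+0.18 ± 0.08).

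Complex IV held both the largest rises and one of the clear falls. Cox7c was 2300 and 2171 in LT 1dEB and 7826 and 7554 in LT 1dMeioLC (+1.78 ± 0.06, adjusted p = 9.4e-10), while Cox8a was 3783 and 3589 against 1838 and 1897 (-0.98 ± 0.04, adjusted p = 6.1e-09). Cox8a led at the first stage and Cox7c at the second, with no overlap between the stages in either gene. Cox4i1, the regulatory subunit present in most tissues, was 1902 and 1959 against 1751 and 1736, a change of -0.15 ± 0.03 that became +0.50 without rescaling. In ATP synthase, Atp5d, the delta subunit of the central stalk, fell most of all members, from 488 and 503 to 101.7 and 97.2 (-2.31 ± 0.04, adjusted p = 3.1e-11). Atp5b and Atp5a1, the beta and alpha subunits, fell as well, by 0.89 ± 0.03 and 0.84 ± 0.05 on the log2 scale (adjusted p = 3.4e-09 and 5.9e-08). Atp5j, a stalk subunit, and Atp5s, a coupling factor, rose by 1.35 ± 0.05 and 1.39 ± 0.12. Of the 19 members that fell, 6 also fell on the deposited TPM and after quantile normalization, among them Atp5a1, Atp5b, Atp5d, Cox8a and Ndufv1. A further 9 of the 19 were called higher on the deposited TPM.

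**Figure D2:**
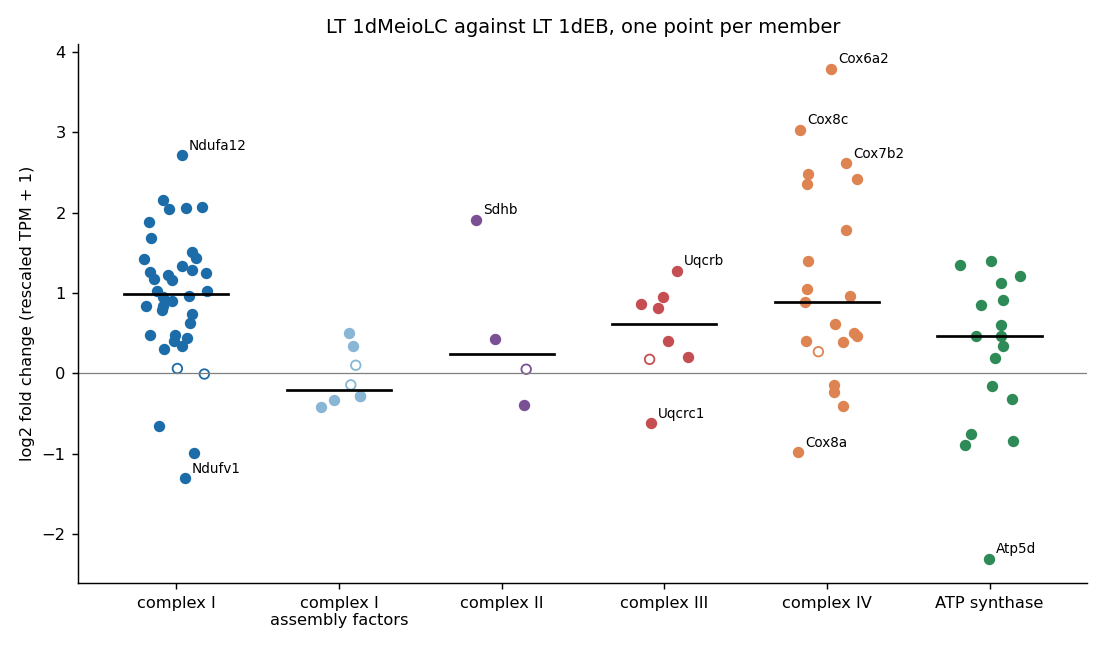
Log2 fold change of each member between LT 1dMeioLC and LT 1dEB (vertical axis, log2 of rescaled TPM + 1), by class (horizontal axis); filled points passed an adjusted p of 0.05, open points did not, and bars are class medians. Complex I has a median of 0.99 and the assembly factors of complex I one of -0.21, with Ndufa12 at 2.71 and Atp5d at -2.31.

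Transcript length went along with this change. Across the 93 members with a protein-coding transcript in the annotation, the change had a Pearson correlation of -0.28 with log2 transcript length. Across 14456 protein-coding genes it was -0.12, where genes are not independent replicates. Of 54 members under 1000 nt, 44 rose and 7 fell (median +0.91), and of 39 longer ones 23 rose and 12 fell (median +0.42). Over all protein-coding genes the medians were +0.41 for the 1365 short and -0.18 for the 13091 longer ones. The part of length in the change was not tested. The lists of other cells moved too: all 6 genes each of the gonadal somatic, the fibroblast and stroma, and the blood and endothelial lists rose from LT 1dEB to LT 1dMeioLC. Summed, the 6 blood and endothelial markers were between 1856 and 1919 rescaled TPM in LT 1dMeioLC, almost all of it haemoglobin Hba-a1 (1800.0 and 1855), while Ptprc, a marker of white blood cells, was at 1.00 and 1.02. The gonadal somatic sum went from 15.2 and 17.4 to 225 and 234, and the stroma sum from 28.6 and 30.2 to 472 and 458. Their part in the result was not tested.

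Promoters were searched for the letters that bind factors known to drive respiratory genes. RefSeq promoters (GRCm38.p6, from 250 bases before to 50 after the start of transcription) were matched for 74 of the 96 members. The NRF1 motif, a palindrome of GCGCA followed at once by its reverse complement, was present in 7 of them (9.46%), in 1.07% of all promoters in the table and in 2.13% of those of tested coding genes. The ETS motif CCGGAAG, which the factor GABPA binds, was present in 18 (24.3%, against 9.93% and 18.6%), and the YY1 motif AAGATGGC in 10 (13.5%, against 3.19% and 4.85%), both searched on either strand. A letter match is a description and not a bound site.

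Below are windows of 3 members before their start, 5′ to 3′ on the gene's strand with the motif in capitals and own-exon bases left out. They are Ndufaf4, an assembly factor that rose, and Cox6a1, a complex IV subunit whose change was -0.41 ± 0.07 with rescaling and +0.24 without it, both with the NRF1 letters, and Uqcr11, a small subunit of complex III that rose, with the ETS letters.
Ndufaf4 (chr4:24897833-24898082, plus strand): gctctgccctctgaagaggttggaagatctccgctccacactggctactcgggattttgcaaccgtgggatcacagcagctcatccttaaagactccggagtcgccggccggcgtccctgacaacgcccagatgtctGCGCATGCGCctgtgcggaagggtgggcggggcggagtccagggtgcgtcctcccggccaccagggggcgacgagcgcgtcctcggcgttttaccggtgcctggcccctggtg
Cox6a1 (chr5:115348982-115349208, minus strand): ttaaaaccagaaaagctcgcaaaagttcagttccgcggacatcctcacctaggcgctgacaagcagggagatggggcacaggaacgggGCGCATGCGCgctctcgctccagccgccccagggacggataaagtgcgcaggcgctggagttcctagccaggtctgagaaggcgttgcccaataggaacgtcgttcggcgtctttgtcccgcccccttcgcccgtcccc
Uqcr11 (chr10:80406831-80407071, minus strand): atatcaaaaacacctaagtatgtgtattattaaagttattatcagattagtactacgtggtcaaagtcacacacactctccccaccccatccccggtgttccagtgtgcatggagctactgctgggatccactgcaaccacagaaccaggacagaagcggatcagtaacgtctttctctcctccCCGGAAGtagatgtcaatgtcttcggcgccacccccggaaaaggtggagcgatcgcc

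The motif in capitals begins 113 bases before the start in Ndufaf4, 162 in Cox6a1 and 66 in Uqcr11. Cox6a1 also has the ETS letters, in the part of its promoter that is not printed. The windows of Ndufaf4 and Uqcr11 hold no exon of the annotation, and that of Cox6a1 overlaps an exon of the long non-coding RNA gene Gm42903. Ndufaf4 was 32.1 and 28.8 in LT 1dEB and 42.8 and 44.8 in LT 1dMeioLC (+0.51 ± 0.08). Cox6a1 was 2919 and 3132 against 2202 and 2356, and Uqcr11 was 1413 and 1469 against 2462 and 2804 (+0.87 ± 0.10). Of the 7 members with the NRF1 letters, 3 rose and 3 fell at this step (median -0.14), of the 18 with the ETS letters 14 rose and 3 fell (median +0.46), and of the 10 with the YY1 letters 7 rose and 0 fell (median +0.56). Of the 2 with the ESRRA letters 1 rose and 1 fell, and of the 4 with the CRE letters 2 rose and 1 fell. These members were few and overlap between motifs, and no difference between them was tested. The RNA of the factor Nrf1 was 19.0 and 17.1 rescaled TPM in LT 1dEB and 4.77 and 3.86 in LT 1dMeioLC.

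The second comparison set the short-telomere line against the long-telomere line at the 1dEB stage. Of 96 members, 7 were called higher in ST and 51 lower, where over all genes 22.0% were higher and 18.8% lower (40.7% in either direction), and the median was -0.25 over the members and 0.00 over all genes. On the deposited TPM the counts were 24 higher and 26 lower, with 26.7% and 11.6% over all genes, and after quantile normalization 14 and 44, with 18.5% and 23.5%. The same 7 were higher and 26 were lower under all 3 scalings. With rescaling, lower members were 13 of 17 in ATP synthase, 17 of 38 in complex I and 6 of 8 complex I assembly factors. In complex III they were 5 of 8, in complex IV 8 of 21 and in complex II 2 of 4. As a share of deposited TPM, complex I was higher in ST (0.574% against 0.548% in LT), as was complex IV (0.731% against 0.699%). ATP synthase was lower in ST (0.298% against 0.318%), as was complex III (0.222% against 0.259%). Without LT 1dEB replicate 1 the count of higher members was 3, without ST 1dEB replicate 1 it was 3, and without ST 1dEB replicate 2 it was 4; fitted on these 4 libraries alone it was 3 higher and 33 lower.

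Ndufa4, the complex IV subunit once assigned to complex I, was 701 and 720 in LT 1dEB and 414 and 420 in ST 1dEB (-0.77 ± 0.04, adjusted p = 2e-07). Ndufa5, an accessory subunit of complex I, was 451 and 419 against 224 and 250 (-0.88 ± 0.07, adjusted p = 4.3e-06), and Uqcr10 of complex III was 2245 and 2248 against 1259 and 1300 (-0.81 ± 0.05, adjusted p = 6.5e-07). In each of these 3 genes both ST libraries lay well under both LT libraries, and each was called lower under all 3 scalings. The membrane ring of ATP synthase is built from subunit c, which 3 genes encode. Of these, Atp5g1 was 378 and 387 in LT and 250 and 253 in ST (-0.60 ± 0.03, adjusted p = 2.1e-07). Atp5g2 and Atp5g3 were at -0.14 ± 0.07 and -0.25 ± 0.06, and the former did not pass the test. Without rescaling Atp5g2 was at +0.06 and the call of Atp5g3 was lost (-0.06). Cox7a2, the widely expressed form of a complex IV subunit, was 1448 and 1368 against 872 and 921 (-0.65 ± 0.05, adjusted p = 5e-06).

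Assembly factors of complex I were among the lower members. Ndufaf6 was 88.1 and 97.5 in LT and 59.5 and 53.6 in ST (-0.70 ± 0.10, adjusted p = 0.00023), and Ndufaf1, Ndufaf2, Ndufaf5, Ndufaf7 and Ndufaf8 were lower by 0.53 to 0.66 on the log2 scale. Ndufaf4 went the other way, with 41.2 and 37.1 in ST against 32.1 and 28.8 in LT (+0.35 ± 0.08, adjusted p = 0.0064), a call lost without LT 1dEB replicate 2 (adjusted p = 0.0523) or ST 1dEB replicate 1 (adjusted p = 0.0512). The assembly factors other than Ndufaf4 are named after their values were seen. Complex II was split: Sdhd was lower (267 and 273 against 187 and 195, -0.50 ± 0.06) and Sdhc was higher (116 and 120 against 151 and 141, +0.30 ± 0.08, adjusted p = 0.011). The Sdhc call was lost without LT 1dEB replicate 1 (adjusted p = 0.0587) or ST 1dEB replicate 1 (adjusted p = 0.0749).

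Other genes of the same machinery were counted from lists. Of 13 mitochondrially encoded subunits 0 were higher and 10 lower (median -0.58), and on the deposited TPM again 0 and 10. Their summed level was lower in ST by 29.5%. Of 21 regulators of mitochondrial biogenesis 0 were higher and 11 lower, or 2 and 7 on the deposited TPM. Ssbp1, which binds single-stranded mitochondrial DNA, was 52.9 and 54.1 against 17.2 and 18.4 (-1.54 ± 0.06, adjusted p = 1.4e-08), and Tefm, an elongation factor of mitochondrial transcription, was -0.87 ± 0.10. Of 41 assembly factors of all complexes 5 were higher and 18 lower (11 and 7 on the deposited TPM). Of 24 electron carriers and entry points 5 were higher and 10 lower, among them Cyct, the testis form of cytochrome c, at 445 and 441 against 136 and 129 (-1.73 ± 0.08). Of 19 citric acid cycle genes 0 were higher and 7 lower (3 and 5 on the deposited TPM), and of 78 mitochondrial ribosomal proteins 4 were higher and 41 lower (9 and 26). Ribosomal proteins of the cytosol moved likewise, with 6 higher and 59 lower of 85 (14 and 20 on the deposited TPM). Markers of fibroblasts and stroma, 6 of 6, were higher in ST: their sum was 28.6 and 30.2 in LT 1dEB, 585 and 565 in ST 1dEB and 230 and 246 in RT 1dEB. Their part in the result was not tested.

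At the 1dEB stage the rescued line was set against both others, which share the ST and LT libraries with the comparison above. Against LT, 10 members were higher in RT and 53 lower, with 23.5% and 14.4% over all genes (37.9% in either direction); the deposited TPM gave 1 higher and 86 lower, with 10.7% and 30.9% over all genes (41.6% in either direction), and quantile normalization 15 and 37, with 17.3% and 20.3%. Ndufa4 was 320 and 297 in RT, below both ST and LT (RT against LT -1.20 ± 0.04, adjusted p = 4.4e-08). Ndufa5 was 204 and 201, Uqcr10 was 1260 and 1223 and Atp5g1 was 211 and 212, all under the LT libraries. Ndufa5 and Atp5g1 in RT were also under both ST libraries, and Uqcr10 overlapped them.

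Against ST, 16 members were higher in RT 1dEB and 25 lower, with 18.6% and 17.0% over all genes (35.7% in either direction). This split depends on the scale: the deposited TPM gave 1 higher and 87 lower, with 5.14% and 44.6% over all genes (49.7% in either direction), and quantile normalization 27 and 21, with 17.9% and 19.0%. Of the 16 members higher with rescaling, 11 were called lower on the deposited TPM. Cox7a1 was higher under all 3 scalings (30.5 and 54.1 in ST, 112.1 and 101.9 in RT, +1.37 ± 0.21, adjusted p = 0.00056), and 17 members were lower under all 3. One of these was Uqcrh, the hinge protein of complex III that binds cytochrome c1, with 684 and 734 in ST and 455 and 460 in RT (-0.63 ± 0.04, adjusted p = 2.5e-06). Nuclear protein-coding genes held 44.5% and 44.1% of TPM in ST 1dEB and 27.2% and 29.2% in RT 1dEB. Without RT 1dEB replicate 2 the lower members numbered 14, and without ST 1dEB replicate 2 they numbered 16; fitted on these 4 libraries alone there were 4 higher and 7 lower.

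The same comparison of ST with LT at the 1dMeioLC stage gave 17 members higher and 37 lower, where over all genes 20.1% were higher and 13.8% lower (33.9% in either direction); the medians were -0.12 over the members and 0.01 over all genes. The deposited TPM gave 8 higher and 50 lower, with 17.4% and 17.7% over all genes (35.1% in either direction), and 8 members were higher and 29 lower under all 3 scalings. Lower members were 9 of 17 in ATP synthase, 16 of 38 in complex I, 4 of 8 in complex III and 7 of 21 in complex IV, and 1 of 8 assembly factors of complex I. The number of higher members was 11 without either LT 1dMeioLC library or without ST 1dMeioLC replicate 1, and 12 without ST 1dMeioLC replicate 2.

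Cox7c, the most abundant member at this stage, was 7826 and 7554 in LT and 4425 and 4272 in ST, with RT between at 5569 and 5801 (ST against LT -0.82 ± 0.06, adjusted p = 5.5e-06). Cox7a2 was 2129 and 2169 in LT, 1347 and 1267 in ST and 1855 and 1932 in RT (ST against LT -0.72 ± 0.05, adjusted p = 1.1e-05). Atp5g1 was 714 and 735 in LT, 476 and 487 in ST and 729 and 755 in RT (ST against LT -0.59 ± 0.03, adjusted p = 1.7e-06). In all 3 genes both ST libraries were lowest, and RT overlapped LT in Atp5g1 and lay between ST and LT in the other two. Uqcrb and Ndufb2, small subunits of complexes III and I, were lower in ST by 0.59 ± 0.05 and 0.71 ± 0.07 on the log2 scale (adjusted p = 2.3e-05 and 6.8e-05).

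A set of members was higher in ST at this stage. Uqcrc1 was 125 and 136 in LT, 205 and 234 in ST and 150 and 149 in RT (ST against LT +0.75 ± 0.07, adjusted p = 4.2e-05). Atp5d was 101.7 and 97.2 in LT, 157 and 149 in ST and 127 and 130 in RT (+0.62 ± 0.04, adjusted p = 7.6e-06), and Atp5a1 was 329 and 326, 424 and 427, and 339 and 351 (+0.38 ± 0.05, adjusted p = 0.00019). Ndufa10, an accessory subunit of complex I, was 91.9 and 91.0 in LT and 125 and 128 in ST (+0.46 ± 0.04, adjusted p = 4e-05). Uqcrc1, Atp5d, Atp5a1 and Ndufa10 were among the members that fell from LT 1dEB to LT 1dMeioLC with rescaling (without it Atp5d and Atp5a1 fell, Ndufa10 was at -0.02 and Uqcrc1 at +0.02), a step that shares the LT libraries with this comparison.

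Markers of the sorted cells differed between the lines at this stage. All 3 later germ cell markers (Ddx4, Dazl, Mael) and all 3 meiotic entry markers (Stra8, Sycp3, Rec8) were lower in ST: their sums were 709 and 676 in LT against 165 and 179 in ST for the former, and 1738 and 1765 against 735 and 724 for the latter. The sum of 6 PGC markers, led by Dppa3, was 999.9 and 951 in LT and 164 and 165 in ST. Gonadal somatic markers were higher in 3 of 6 genes, with sums of 225 and 234 in LT, 379 and 367 in ST and 204 and 205 in RT, and none of the 6 was at 0. Of the blood and endothelial markers, Cdh5 was listed at 0 in both ST libraries and Hba-a1 was 2581 and 2592 in ST against 1800.0 and 1855 in LT. The part of these markers in the result was not tested. Among the other lists, mitochondrially encoded subunits were 4 higher and 1 lower of 13 and their sum was 20.2% higher in ST, mitochondrial ribosomal proteins were 20 and 22 of 78 (12 and 27 on the deposited TPM), and cytosolic ribosomal proteins were 15 higher and 51 lower of 85. Cyct was again lower in ST (-1.24 ± 0.08), as was Ssbp1 (-0.92 ± 0.06), while Ppargc1a, a coactivator of mitochondrial biogenesis, was 2.81 and 3.74 in LT and 8.22 and 6.05 in ST (+0.92 ± 0.23, adjusted p = 0.012).

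In RT against ST at the 1dMeioLC stage, which shares the ST libraries with the comparison above, 52 members were higher in RT and 12 lower. Over all genes 10.4% were higher and 24.1% lower (34.5% in either direction), and the medians were +0.23 over the members and -0.11 over all genes. The deposited TPM gave 59 and 5, with 13.1% and 20.2% over all genes, and 34 members were higher and 5 lower under all 3 scalings. Each of these lower counts includes Cox8b, at a mean of 3.59 rescaled TPM in ST and 0 in RT. Cox8b passed the filter only through the ST libraries, so its call is no separate support. Without RT 1dMeioLC replicate 2 the lower members numbered 7, and fitted on these 4 libraries alone there were 29 higher and 4 lower. The higher members were 22 of 38 in complex I, 12 of 21 in complex IV, 10 of 17 in ATP synthase and 5 of 8 in complex III. Atp5g1 was +0.62 ± 0.03 (adjusted p = 1.5e-06), Ndufb2 +0.60 ± 0.07 (adjusted p = 0.0002) and Cox7c +0.39 ± 0.06 (adjusted p = 0.00054), while Uqcrc1 was -0.55 ± 0.07 (adjusted p = 0.00029) and Ndufa10 -0.49 ± 0.04 (adjusted p = 3.3e-05). Of 54 members under 1000 nt 36 were higher and 2 lower, and of 39 longer ones 16 and 10; over all protein-coding genes the medians were +0.18 and -0.21. The part of length was not tested. Later germ cell and meiotic entry markers were higher in RT in 3 of 3 genes each, and 5 of 6 gonadal somatic markers were lower.

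RT against LT at this stage had the lowest share of called genes among the comparisons of groups. In RT, 20 members were higher and 7 lower, with 5.75% and 10.8% over all genes (16.5% in either direction). The deposited TPM gave 21 and 8, with 6.2% and 12.4% over all genes. Without any 1 of these 4 libraries the counts were 11 to 13 higher and 2 to 4 lower. Ndufb11, an accessory subunit of complex I, was higher (895 and 864 in LT, 1198 and 1176 in RT, +0.43 ± 0.04, adjusted p = 0.00015), as was Cox8a (1838 and 1897 against 2343 and 2444, +0.36 ± 0.04, adjusted p = 0.00032). Cox7c remained lower in RT (-0.44 ± 0.06, adjusted p = 0.00075). Ndufb11 is named after its values were seen.

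**Figure D3:**
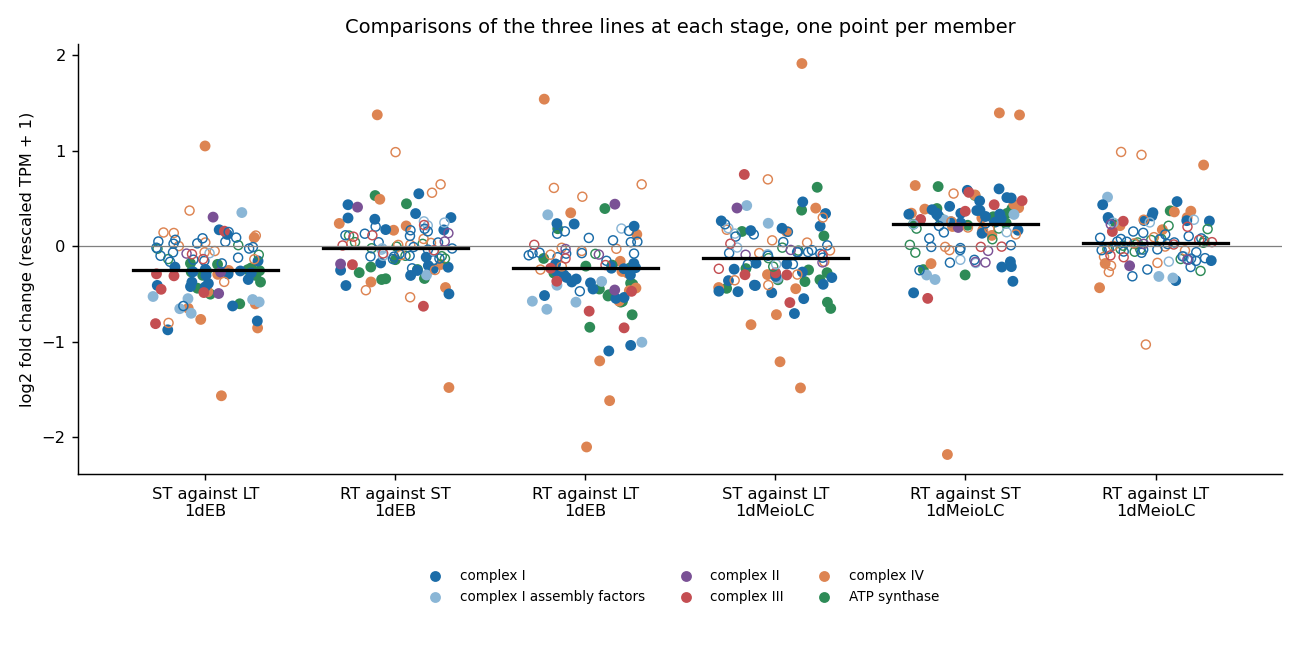
Log2 fold change of each member (vertical axis, log2 of rescaled TPM + 1) in the 6 comparisons between lines (horizontal axis); filled points passed an adjusted p of 0.05, open points did not, colours are classes and bars are medians. The bars stand at -0.25, -0.02 and -0.23 for the 1dEB stage and at -0.12, 0.23 and 0.04 for the 1dMeioLC stage.

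Whether the difference between ST and LT itself changed between the stages was tested as an interaction. It was more positive at 1dMeioLC for 32 members and more negative for 15, with 18.9% and 18.8% over all genes (37.8% in either direction), and the deposited TPM gave 9 and 39, with 12.2% and 26.4%, so the balance of the count depends on the scale. Under all 3 scalings 9 members were more positive and 13 more negative. Uqcrc1 (+0.83 ± 0.10, adjusted p = 0.00012) and Atp5a1 (+0.68 ± 0.06, adjusted p = 2.5e-05) were in the former set, with the assembly factors Ndufaf2, Ndufaf6 and Ndufaf7 (+0.80, +0.89 and +0.97). Uqcrh (-0.44 ± 0.06, adjusted p = 0.0003) and Cox6b2 (-1.21 ± 0.20, adjusted p = 0.001) were in the latter. The same test for RT against ST found 44 members more positive at 1dMeioLC and 11 more negative, where 34.5% of all genes passed in either direction and 22.0% were more negative. On the deposited TPM it found 87 and 1, with 34.6% and 7.65%. Ndufa4 (+0.83 ± 0.06, adjusted p = 6.8e-06) and Uqcrh (+1.06 ± 0.06, adjusted p = 2.1e-06) were more positive: RT was under ST at 1dEB and over it at 1dMeioLC, where Uqcrh was 932 and 942 in RT and 701 and 688 in ST.

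Taking the calls at each stage, 25 members were lower in ST at both, where 4.26% of all genes were, and for 16 of the 25 the difference between stages did not pass the test. The deposited TPM gave 19 and quantile normalization 16, and 11 were lower at both stages under all 3 scalings: Atp5g1, Atp5h, Cox7a2, Cox7b2, Cox7c, Ndufa4, Ndufa5, Ndufaf5, Ndufb2, Ndufv3 and Uqcrq. The 25 were 9 complex I members and 1 assembly factor (Ndufa5, Ndufa7, Ndufb2, Ndufb3, Ndufb5, Ndufc1, Ndufc2, Ndufs4, Ndufv3 and the assembly factor Ndufaf5), 3 of complex III (Uqcr10, Uqcrb, Uqcrq), 5 of complex IV (Cox5b, Cox7a2, Cox7b2, Cox7c, Ndufa4) and 7 of ATP synthase (Atp5c1, Atp5f1, Atp5g1, Atp5h, Atp5j, Atp5j2, Atp5mpl). A further 6 were lower at 1dEB and higher at 1dMeioLC with rescaling (Atp5a1, Atp5b, Atp5o, Ndufaf2, Ndufaf7, Ndufv2), where 3.81% of all genes were. On the deposited TPM 1 member, Ndufv2, was called so, and 11 were called higher and then lower. With rescaling 1 member (Uqcrh) was higher and then lower, where 2.23% of all genes were. Shares of all genes in these patterns were taken with rescaling only. Ndufv2 and Uqcrh kept their pattern under all 3 scalings. Ndufv2 was 266 and 253 in LT against 198 and 189 in ST at 1dEB, and 518 and 493 against 650 and 630 at 1dMeioLC. Sdhc was among 2 members (2.08%) higher in ST at both stages with rescaling, where 6.92% of all genes were. Atp5a1 was lower and then higher in ST with rescaling, and its call at 1dEB was lost without it (-0.12): 616 and 559 in LT against 478 and 470 in ST at 1dEB, and 329 and 326 against 424 and 427 at 1dMeioLC. Across 93 members the difference between ST and LT had Pearson correlations with transcript GC content of 0.35 at 1dEB and 0.39 at 1dMeioLC, against 0.08 and 0.14 across 14456 protein-coding genes, and the part of GC content was not tested.

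**Figure D4:**
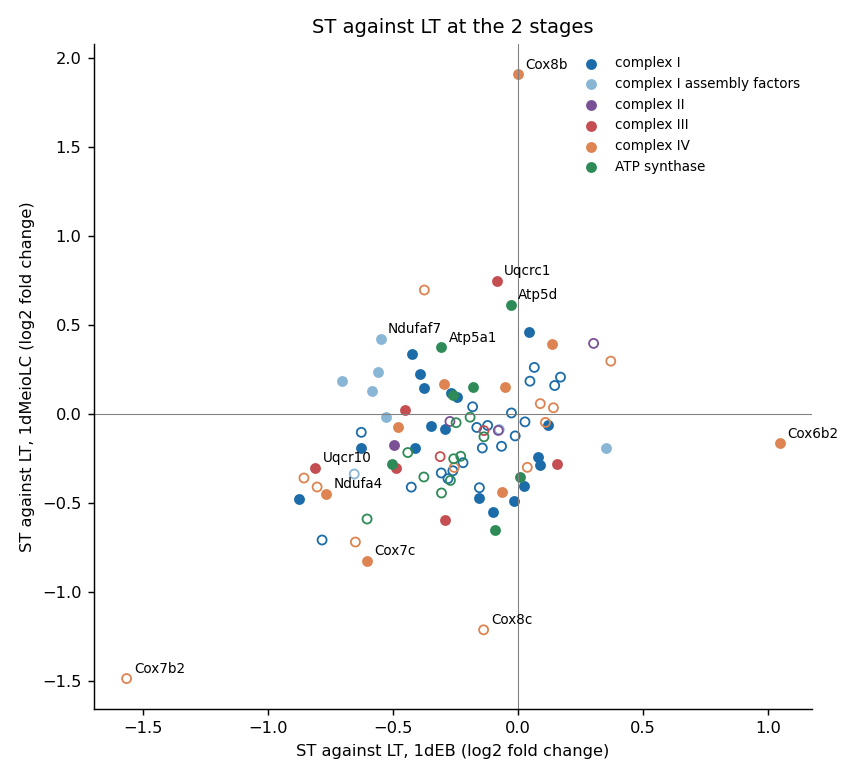
Log2 fold change of ST against LT at the 1dEB stage (horizontal axis) and at the 1dMeioLC stage (vertical axis), 1 point per member coloured by class; filled points passed an adjusted p of 0.05 for the difference between the stages. Cox7b2 lies at -1.57 and -1.48, Uqcr10 at -0.81 and -0.30 and Uqcrc1 at -0.08 and 0.75.

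Complex IV has members known as tissue-restricted isoforms. Cox4i2, Ndufa4l2, Cox6a2 and Cox7b2 were higher in LT 1dMeioLC than in LT 1dEB, and higher in PGC-1dMeioLC than in E10.5PGC. LT 1dEB is an earlier stage than the PGC-like cells put into the 1-day culture. The LT step therefore spans the induction of PGC-like cells as well as the culture with gonadal somatic cells. Cox4i2, the lung and hypoxia form of subunit 4, was 4.47 and 9.99 in LT 1dEB, 43.4 and 34.7 in LT 1dMeioLC, 2.21 and 1.28 in E10.5PGC and 53.6 and 54.0 in PGC-1dMeioLC. Ndufa4l2, the hypoxia-induced relative of Ndufa4, was 3.68 and 7.19, 34.0 and 33.3, 2.19 and 1.53, and 48.2 and 36.2 in the same groups. Cox6a2, the muscle form of subunit 6a, was 0 and 0.681, 12.6 and 22.8, 0 and 0.494, and 12.4 and 26.0. For these 3 genes LT 1dMeioLC and PGC-1dMeioLC were both above LT 1dEB and E10.5PGC without overlap. In LT 1dMeioLC against LT 1dEB the changes were +2.36 ± 0.32, +2.48 ± 0.23 and +3.79 ± 0.40 (adjusted p = 7.7e-05, 4e-06 and 1.1e-05), and in PGC-1dMeioLC against E10.5PGC +4.34 ± 0.32, +3.91 ± 0.23 and +3.96 ± 0.40 (adjusted p = 1.1e-06, 2.2e-07 and 1.2e-05). For such low values the pseudocount of 1 makes the fold change smaller than the ratio of the levels. Cox6a2 passed the filter only through 1dMeioLC libraries, where it was high, so its calls are no separate support for that difference. Gonadal somatic and stroma markers rose in the same comparisons, in 6 of 6 genes each. The part of these markers in the change was not tested. The summed level of 4 muscle markers was 3.36 and 5.08 rescaled TPM in LT 1dEB, 17.7 and 17.3 in LT 1dMeioLC, 52.0 and 59.9 in E10.5PGC and 14.3 and 13.2 in PGC-1dMeioLC, most of it Actn2, while Myh7, Tnnt2 and Myog reached no more than 0.323, 1.01 and 1.69 in any library.

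The germline-linked isoforms differed by line. Cox7b2, a form of subunit 7b known from testis, was 15.8 and 17.9 in LT 1dEB, 4.06 and 6.16 in ST 1dEB and 4.17 and 2.34 in RT 1dEB. At 1dMeioLC it was 101 and 117 in LT, 40.0 and 36.3 in ST and 102 and 98.5 in RT. It rose by 2.62 ± 0.20 from LT 1dEB to LT 1dMeioLC and by 1.96 ± 0.20 in the culture of embryonic germ cells (adjusted p = 9.3e-07 and 1.3e-05), from 22.1 and 21.1 to 81.9 and 92.6. The ST line was therefore under LT at both stages (-1.57 ± 0.20 and -1.48 ± 0.20, adjusted p = 0.00012 and 0.00039), while RT was under LT at 1dEB (-2.10 ± 0.20, adjusted p = 2.4e-05) and overlapped it at 1dMeioLC (-0.11 ± 0.20, adjusted p = 0.79). Cox8c, another testis form, was 31.5 and 25.7 in LT 1dMeioLC, 13.5 and 10.2 in ST and 12.2 and 14.8 in RT. Its ST against LT call (-1.21 ± 0.35, adjusted p = 0.023) was lost without LT 1dMeioLC replicate 1 (adjusted p = 0.117), LT 1dMeioLC replicate 2 (adjusted p = 0.06) or ST 1dMeioLC replicate 2 (adjusted p = 0.121). Cox6b2, the sperm form of subunit 6b, went the other way at 1dEB: 33.2 and 30.1 in LT, 58.4 and 75.4 in ST and 96.9 and 90.4 in RT (ST against LT +1.05 ± 0.14, adjusted p = 0.00019). At 1dMeioLC its 6 libraries lay between 68.5 and 89.3. Cox7a1, the heart and muscle form of subunit 7a, was 74.4 and 74.4 in LT 1dEB, 30.5 and 54.1 in ST and 112.1 and 101.9 in RT (ST against LT -0.86 ± 0.21, adjusted p = 0.0069). Cox8b was at 4.30 and 2.88 rescaled TPM in ST 1dMeioLC, and in the other 14 libraries it was listed at 0 or reached at most 1.45. It passed the filter only through those ST libraries, so calls of Cox8b as high there are no separate support.

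**Figure D5:**
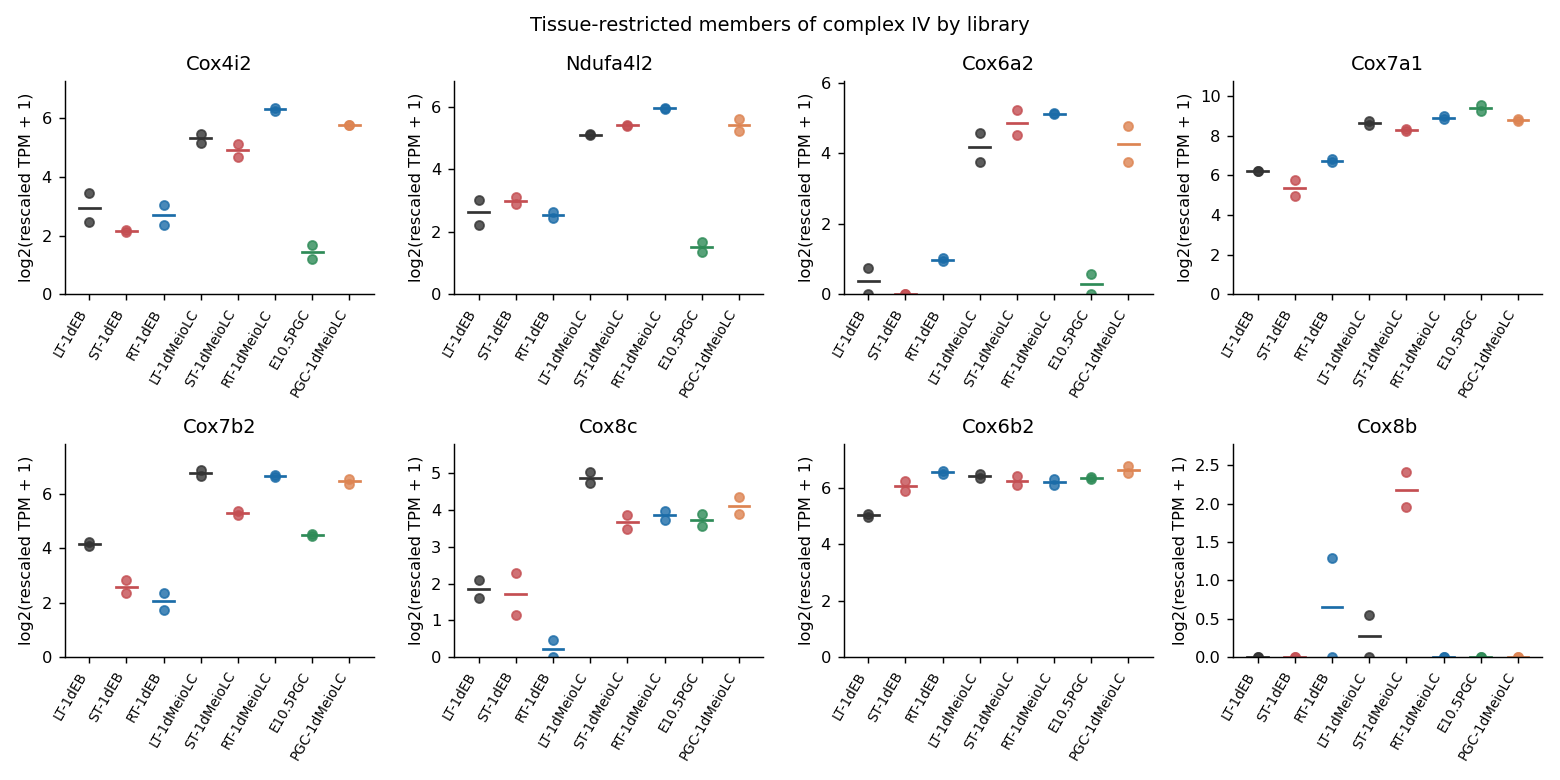
Level of 8 tissue-restricted members of complex IV (vertical axes, log2 of rescaled TPM + 1) in each library by group (horizontal axes); points are libraries and bars the mean of 2. Cox4i2, Ndufa4l2 and Cox6a2 are low in 1dEB and E10.5PGC and high in all 1dMeioLC groups, and Cox7b2 is lower in ST than in LT at both stages.

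For germ cells from the embryo, the 1-day culture was compared with the cells before it. In PGC-1dMeioLC against E10.5PGC 27 members were higher and 36 lower, where over all genes 38.9% were higher and 15.0% lower (53.9% in either direction); the medians were -0.02 over the members and +0.28 over all genes. The deposited TPM gave 15 higher and 48 lower, with 34.7% and 18.9%, and 14 were higher and 30 lower under all 3 scalings. Cox7c was 4549 and 4768 before and 8214 and 8144 after culture (+0.81 ± 0.06, adjusted p = 5.9e-07), and Ndufa1, an accessory subunit needed to build complex I, was 1109 and 1195 against 2463 and 2393 (+1.08 ± 0.08, adjusted p = 1.4e-06). Both rose from LT 1dEB to LT 1dMeioLC as well. Ndufaf6 was 165 and 150 against 65.0 and 70.0 (-1.21 ± 0.10, adjusted p = 2.3e-06), Uqcrc1 was 292 and 280.5 against 145 and 134 (-1.03 ± 0.07, adjusted p = 6e-07), and Ndufs7, a core iron-sulfur subunit, was 488 and 489 against 258 and 283 (-0.85 ± 0.06, adjusted p = 5.1e-07). Of the 8 assembly factors of complex I, 5 were lower and 0 higher. Mitochondrially encoded subunits were 8 higher and 0 lower of 13, mitochondrial ribosomal proteins 9 higher and 48 lower of 78, PGC markers 0 higher and 5 lower of 6, and gonadal somatic and stroma markers higher in 6 of 6 genes each. The part of these markers was not tested.

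The cultured cells from ESCs and from the embryo were then compared at the same stage. In LT 1dMeioLC against PGC-1dMeioLC 29 members were higher in the ESC-derived cells and 6 lower, with 8.32% and 13.8% over all genes (22.1% in either direction). The deposited TPM gave 52 higher and 2 lower, with 13.4% and 8.25%. Complex I held 15 of the higher members. Sdhb was 795 and 784 in LT 1dMeioLC and 533 and 559 in PGC-1dMeioLC (+0.53 ± 0.06, adjusted p = 0.00024), and Ndufa8, an accessory subunit of complex I, was 1388 and 1386 against 986 and 1041 (+0.45 ± 0.06, adjusted p = 0.00087). Atp5d was 101.7 and 97.2 against 150 and 146 (-0.57 ± 0.04, adjusted p = 2.1e-05), and Atp5a1 was 329 and 326 against 426 and 430 (-0.38 ± 0.05, adjusted p = 0.00034). Cox7c, at 7826 and 7554 against 8214 and 8144, did not pass the test (-0.09 ± 0.06, adjusted p = 0.29). Fitted on these 4 libraries alone the higher members numbered 15.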

How the data were processed

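Gene expression had been measured by RNA sequencing of total RNA, and the authors deposited 1 table of TPM values per gene and library. Per the submitters' processing notes, Bowtie2, HISAT2, RSEM, DESeq2 and R 3.4.2 were used with the mm10 build; which tool did which step was not given in the sources used here. In all, the series names 28 samples in 14 groups. 16 columns could be matched to samples of 8 groups, and 12 columns that carry 6 names 2 times each were not analysed here.

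The deposited TPM were rescaled so that nuclear protein-coding genes (GENCODE M21 biotypes) sum to 1000000 in each library. Genes at 1 deposited TPM or more in at least 2 libraries (21935) were fitted as log2(value + 1) with limma 3.58.1 in R 4.3.3, with a group mean for each of the 8 groups, a trended prior (8 residual and 2.17 prior degrees of freedom) and Benjamini-Hochberg adjustment over all genes at 0.05. TPM keeps no depth, so each library was weighted alike, and 2 libraries per group limit the precision. Tables and figures were made with Python 3.11.15, pandas 2.3.3, scipy 1.17.1 and matplotlib 3.10.9, and the fit was tested on simulated data. Of 100 genes given a change of 1 on the log2 scale, it recovered 68 in ST against LT at 1dEB. It recovered 82 in ST against LT at 1dMeioLC and 70 in LT 1dMeioLC against LT 1dEB. Smaller given changes were recovered less often (39, 27 and 32 of 100), so a member that did not pass may still differ. Alternatives were the TPM without rescaling, quantile normalization, a pseudocount of 0.1, no filter, a filter at 5 TPM, a replicate block, the compared groups alone and each library left out.

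Members and gene lists were chosen with earlier results of these data known. The rule for naming genes gave 22 members wherever measured, the 3 highest and 3 lowest members past the threshold without overlap in each comparison, and up to 4 genes of each other list in ST against LT at each stage. Other members are named after their values were seen, among them Atp5g1, Atp5g3, Atp5j, Ndufa1, Ndufaf1, Ndufaf5, Ndufb2, Ndufb8, Sdhd, Uqcr10, Uqcr11 and Uqcrb. The same holds for most members in the list of those lower in ST at both stages. Counts cover all members, and the values of 1 member are not reported here. Promoter sequences are from RefSeq (GRCm38.p6), matched by symbol.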

Additional observations from a re-analysis of the deposited data

Results flagged for a closer look

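The members below are those that the naming rule gave for the differences between stages and whose difference between lines itself differed between the 1dEB and the 1dMeioLC stage, tested as an interaction in limma over all genes (adjusted p under 0.05). Values are log2 differences at 1dMeioLC minus those at 1dEB. For ST against LT, complex I assembly factors gave 0.97 for Ndufaf7, 0.89 for Ndufaf6 and -0.54 for Ndufaf4. Complex III subunits gave 0.83 for Uqcrc1 and 0.48 for Uqcrfs1. Complex IV subunits gave 0.32 for Ndufa4, 0.47 for Cox5a, 0.26 for Cox7a2l, 0.20 for Cox8a and -1.21 for Cox6b2. ATP synthase gave 0.68 for Atp5a1, 0.37 for Atp5b and -0.56 for Atp5s. Of members outside the rule for this difference, Ndufaf2 (0.80) and Uqcrh (-0.44), described above, passed too. Cox7a2l and Cox8a turned to -0.03 and -0.09 without rescaling.

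For RT against ST, complex I subunits gave -0.53 for Ndufa10, -0.51 for Ndufv1 and -0.43 for Ndufs1. Complex III gave 1.06 for Uqcrh and -0.65 for Uqcrc1. Complex IV gave 1.91 for Cox7b2, 1.66 for Cox8c, 1.01 for Ndufa4l2, 0.83 for Ndufa4, 0.72 for Cox6a1, 0.46 for Cox7a2, 0.18 for Cox8a and -0.39 for Cox7a2l. ATP synthase gave -0.51 for Atp5b. Each negative value here was positive without rescaling. Cox8c was near the floor at 1dEB, with means of 2.53 rescaled TPM in ST and 0.190 in RT. At 1dMeioLC its RT against ST change did not pass the test (+0.18). Ndufa4l2 passed the test in RT against ST at neither stage, with means of 7.03 in ST and 4.83 in RT at 1dEB. Cox8b gave 1.91 for ST against LT and -2.83 for RT against ST, but it was listed at 0 in most libraries, so these fitted values depend on the pseudocount and bound nothing.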

How the results depend on the processing

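Counts below are members called higher and lower. Leaving out the rescaling gave 24 and 26 in ST against LT at 1dEB, 1 and 87 in RT against ST at 1dEB, 1 and 86 in RT against LT at 1dEB, 8 higher in ST against LT at 1dMeioLC and 5 lower in RT against ST at 1dMeioLC. It gave 15 higher in PGC-1dMeioLC against E10.5PGC, 52 and 2 in LT 1dMeioLC against PGC-1dMeioLC, 6 lower in LT 1dMeioLC against LT 1dEB, 9 and 39 for the stage difference of ST against LT, and 87 and 1 for that of RT against ST. Quantile normalization gave 14 higher in ST against LT and 27 higher in RT against ST at 1dEB, and 17 more negative stage differences of RT against ST. Fits on the compared groups alone, which have fewer libraries to estimate the spread, gave 3 and 33 in ST against LT at 1dEB, 4 and 7 in RT against ST at 1dEB, 35 lower in RT against LT at 1dEB, 29 and 4 in RT against ST at 1dMeioLC, 4 and 0 in RT against LT at 1dMeioLC, and 15 higher in LT 1dMeioLC against PGC-1dMeioLC. No filter gave 4 lower in RT against LT at 1dMeioLC. The pseudocount of 0.1 and the filter at 5 TPM moved no count by over 1.5 times.

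With 1 library left out, the lone library of a group being assumed to vary like the others, the ranges were 3 to 6 higher and 45 to 49 lower in ST against LT at 1dEB, 11 to 14 and 14 to 21 in RT against ST at 1dEB, and 8 to 13 and 42 to 47 in RT against LT at 1dEB. At 1dMeioLC they were 11 to 12 and 33 to 34 in ST against LT, 40 to 42 and 7 to 10 in RT against ST, and 11 to 13 and 2 to 4 in RT against LT. They were 21 to 27 and 30 to 33 for the culture of embryonic germ cells, 20 to 23 and 4 to 5 for LT 1dMeioLC against PGC-1dMeioLC, and 67 to 69 and 15 to 18 for the stages of LT.

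Among all 96 members, directions that turned without rescaling and passed the test on at least 1 scale numbered 8 in ST against LT, 40 in RT against ST and 18 in RT against LT at 1dEB, and 13 in LT 1dMeioLC against LT 1dEB. Those that the naming rule gave for the comparison in question are listed next, with the value without rescaling. In ST against LT at 1dEB it was Cox8a (0.14). In RT against ST at 1dEB they were Ndufab1 (-0.10), Atp5g2 (-0.12), Ndufv1 (-0.31), Ndufs1 (-0.42), Sdha (-0.59), Uqcrc1 (-0.55), Uqcrfs1 (-0.43), Cox4i1 (-0.62), Cox5a (-0.64), Cox6b2 (-0.15), Cox7a2 (-0.58), Cox7a2l (-0.44), Cox8a (-0.63) and Atp5b (-0.21). In RT against LT at 1dEB they were Sdhc (-0.020), Atp5g2 (-0.068), Ndufv1 (-0.30), Ndufs1 (-0.36), Uqcrc1 (-0.44), Cox4i1 (-0.34), Cox7a2l (-0.11) and Atp5b (-0.28). In LT 1dMeioLC against PGC-1dMeioLC it was Atp5b (0.026), and in LT 1dMeioLC against LT 1dEB Uqcrc1 (0.025), Cox4i1 (0.50), Cox6a1 (0.24) and Cox7a2l (0.41). For the stage difference of ST against LT they were Cox7a2l (-0.030) and Cox8a (-0.086), and for that of RT against ST Uqcrc1 (0.10), Ndufa10 (0.22), Ndufv1 (0.23), Ndufs1 (0.26), Sdha (0.64), Uqcrfs1 (0.52), Cox7a2l (0.36), Atp5a1 (0.59) and Atp5b (0.24). Quantile normalization turned Cox8a in ST against LT (0.16) and RT against ST (-0.17) at 1dEB and Cox4i1 in RT against ST at 1dMeioLC (-0.076). Others of the text that turned were Atp5d (0.16) and Ndufa12 (0.12) in ST against LT at 1dEB, Cox7c (-0.49), Sdhd (-0.24), Ndufb8 (-0.37), Ndufb11 (-0.48) and Cox5b (-0.41) in RT against ST at 1dEB, and Sdhc (0.24), Ndufaf2 (0.21), Ndufaf6 (0.35) and Atp5g3 (0.48) in LT 1dMeioLC against LT 1dEB. The scale itself, the share of TPM on nuclear protein-coding genes, differed between the groups.

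The replicate numbers of different groups did not deviate together across genes (Pearson correlations from -0.034 to 0.043 over 28 pairs of groups). No pairing by replicate number was therefore seen, but this check cannot exclude a pairing limited to some genes. A fit with the replicate block gave 5 and 52 in ST against LT at 1dEB, 14 and 36 in ST against LT at 1dMeioLC and 70 and 18 in LT 1dMeioLC against LT 1dEB, moved no count by over 1.5 times and changed 7 calls of named members. Read depth is unknown, so no depth limit can be given.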
